A study of Bos grunniens with 18 samples.

Results

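Long m6A peaks are the peaks of at least 1000 bases in the deposited peak tables of yak epididymis. They were chosen by the length column of 3 tables, 1 for each pair of epididymal regions, and their genes were taken from the gene ID of the row. They numbered 571 of 14061 peaks (526 of 7973 genes) for corpus over caput, 589 of 13826 peaks (551 of 8070 genes) for cauda over caput and 598 of 13917 peaks (557 of 7939 genes) for cauda over corpus. The 3 tables together held 1758 rows of long peaks among 41804 rows, and 775 of 9629 genes with any peak had a long one. These rows covered 1370 different spans, of which 82 were identical in all 3 tables. Peaks of under 1000 bases in the same table are called shorter peaks here.

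The tissue was epididymis from 6 male yaks (Bos grunniens), healthy, adult and 4 years old, dissected into corpus, cauda and caput. For each region there were 3 libraries of RNA pulled down with an m6A antibody (MeRIP-seq) and 3 input libraries of fragmented polyadenylated RNA, 18 in all. No treatment or genetic change was given to any group, and no label ties a library to an animal. The tables hold 1 fold, 1 p and 1 adjusted p per peak and no value per library, so the spread between replicates and the depth behind a peak are unknown. The tables do not say whether a fold is relative to input, so more methylation and more transcript of the gene cannot be told apart in any fold below.

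N6-methyladenosine, m6A, is the commonest internal mark of messenger RNA. It is placed by the METTL3 and METTL14 methyltransferase with partners such as ZC3H13 and RBM15, and is read by YTH proteins that steer decay, splicing and translation. In mammalian transcripts it is known to gather in long internal exons and around stop codons. Sperm mature while they pass through the caput and corpus of the epididymis and are stored in the cauda.

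Length chose the members, so lengths are a description. The median long peak had 1289 bases for corpus over caput, 1287 for cauda over caput and 1250 for cauda over corpus, against 250 bases for shorter peaks in each table. Just inside the minimum, at 1000 bases, were the peaks of FLRT3 and NKAPL for corpus over caput, CRYBG1 and MBD4 for cauda over caput, and Taok1 and TBCCD1 for cauda over corpus. Just outside, at 999 bases, were DENND4A and Tasor2, then IQGAP2 and TOP1, then Tasor2 and TOP1. Of the long peaks, 23.5%, 22.2% and 21.7% had lengths within 2 bases of a multiple of 50, against 68.5%, 67.9% and 67.7% of shorter peaks, in the same order of tables.

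The longest peaks lay in transcripts of scaffold and nuclear proteins, and most crossed introns. AKAP12, which anchors protein kinase A, had the longest, 4907 bases for cauda over corpus on the minus strand at chr10:113170810-113226588 (in the files' own coordinates, of a build not given in the sources used here). Its span held 58 candidate adenosines in the caput list, 61 in the corpus list and 10 in the cauda list. ANKRD11, a chromatin-associated corepressor, had 4480 bases at chr20:34556665-34561419 on the plus strand, with 113 candidates in caput, 114 in corpus and 113 in cauda. GOLGB1, the Golgi tether giantin, had 4449 bases on chromosome 1, and ZC3H13, itself a subunit of the m6A writer complex, had 4431 bases at chr15:67689672-67754627 on the plus strand. ZC3H13 carried 111 candidates over caput and corpus together, 31 of them classed as m6A sites. YLPM1, a nuclear protein, had 4100 bases with 114 candidates, and MYH10, the heavy chain of non-muscle myosin IIB, had 3688 bases with 71. Among these peaks the candidates of AKAP12 in the cauda stood apart from those of the other regions.

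Long peaks were unspliced less often than shorter ones. A peak is called unspliced here where its length equals its span from first to last base, so that it crosses no intron. For corpus over caput 161 long peaks, 28.2%, were unspliced (95% Wilson interval 24.7 to 32.0), against 42.5% of shorter peaks (41.6 to 43.3). For cauda over caput the share was 31.1% of long peaks (27.5 to 34.9) against 42.7% of shorter peaks (41.9 to 43.6), and for cauda over corpus 29.4% (25.9 to 33.2) against 42.6% (41.7 to 43.4). The intervals of long and shorter peaks did not overlap in any table. They cover counting error only, and peaks of 1 gene, like the 3 tables, share RNA. Across length classes the share was 48.0% under 200 bases and 35.3% from 500 to 999 bases for corpus over caput, and 29.5% from 1000 to 1499 bases.

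**Figure D1:**
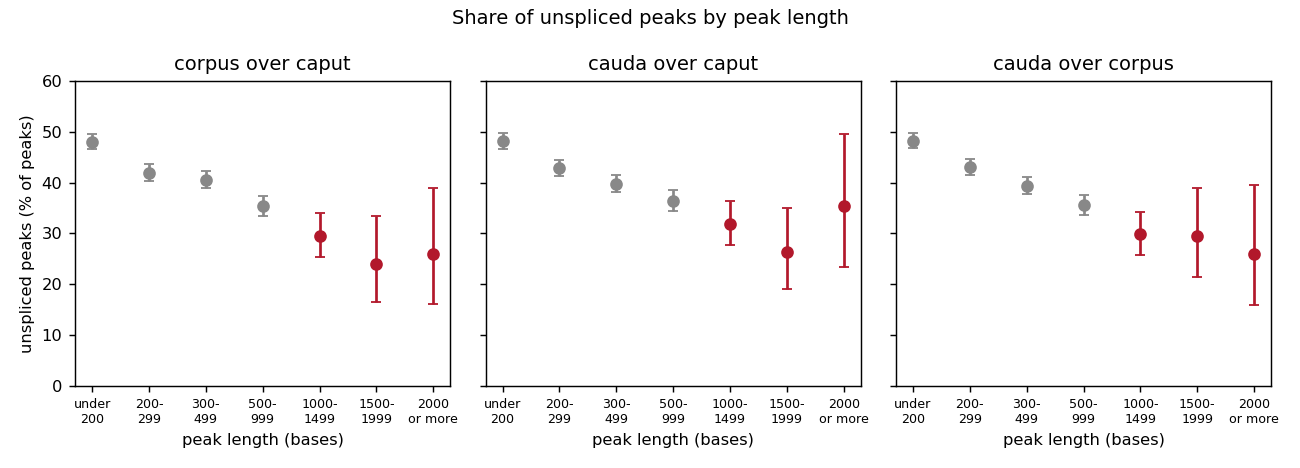
Share of peaks that are unspliced (%, y axis) in 7 classes of peak length (bases, x axis), 1 panel for each comparison; points are shares, bars 95% Wilson intervals, red marks peaks of 1000 bases or more and grey shorter ones. The share is 48.0% to 48.2% under 200 bases and 29.5% to 31.9% from 1000 to 1499 bases, and the bars of the classes from 1500 bases overlap that class.

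Spliced long peaks reached over more of the genome but were less stretched for their length. Their median span was 10386 bases for corpus over caput, and 10849 bases for both other tables, against 3682, 3683 and 3751 bases for spliced shorter peaks. Span over length had a median of 7.29, 7.96 and 8.15 in long peaks against 12.3, 12.1 and 12.3 in shorter ones. The widest long peak spanned 264197 bases. Nearly all long peaks lay in protein-coding genes: 99.5%, 99.0% and 99.7%, against 97.0%, 97.1% and 96.9% of shorter peaks. The exons, introns and UTRs they touch were not analysed here.

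Part of the unspliced long peaks overlapped several peaks of a single region. Of the 161 unspliced long peaks for corpus over caput, 48 (29.8%) overlapped at least 2 peaks of the corpus list. At least 2 of the caput list were overlapped by 49 (30.4%). Of unspliced shorter peaks 3.37% and 3.84% did so. For cauda over caput these were 27.3% for the cauda list and 26.8% for the caput list, against 3.43% and 3.96% of shorter peaks. For cauda over corpus they were 26.1% for the cauda list and 30.7% for the corpus list, against 3.65% and 3.44%. Lengths were not matched in this count. An overlap was at least 1 base of a region peak's span, introns included, on either strand. So these region peaks need not lie within the long peak, and whether they overlap each other was not checked.

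Over all peaks, long ones had more candidate adenosines per kilobase of length than shorter ones. The difference was small or reversed over peaks with a counterpart in a region list. Candidates are the adenosines that the authors' site lists score for each region's peaks. Those of both regions of a pair were counted from first to last base of a peak, on either strand. In spliced peaks this takes in introns, which the length leaves out, so their values per kilobase are not densities of the peak itself. Long peaks had a median of 24 candidates in each table, against 4 in shorter peaks. Per kilobase of peak the medians were 18.3, 18.3 and 18.1 in long peaks (95% intervals of the median 17.6 to 19.2, 17.4 to 19.2 and 17.2 to 19.0), against 15.1 in shorter peaks of each table. From 500 to 999 bases the median was 16.8 in each table, with intervals below those of all long peaks. These intervals overlapped those from 1000 to 1499 bases, where the medians were 17.8, 17.8 and 17.4. A long peak rarely had no candidate: 5 of 571, 9 of 589 and 3 of 598, against 14.0%, 14.2% and 14.8% of shorter peaks. Among peaks whose first and last base equal those of a peak in at least 1 of the 2 region lists, the medians were 18.3, 18.7 and 17.5 per kilobase in 288, 292 and 277 long peaks, against 17.6, 17.8 and 18.1 in shorter ones, with overlapping intervals in each table. Among the spliced peaks of that kind they were 19.2, 19.3 and 17.7 in long peaks against 17.1, 17.3 and 17.5. Among the unspliced peaks of that kind the long ones had the lower medians: 15.9, 17.0 and 16.6 per kilobase against 19.9, 18.8 and 19.9. Such a counterpart holds at least 1 candidate, so this choice drops the peaks with none, which were more frequent among shorter ones. Over all unspliced peaks, where no intron is counted, the medians were 17.7, 18.0 and 17.7 in long peaks against 15.5, 15.2 and 15.2. So the direction of the difference depends on which peaks are counted, and the choice by counterpart selects on the candidates themselves.

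**Figure D2:**
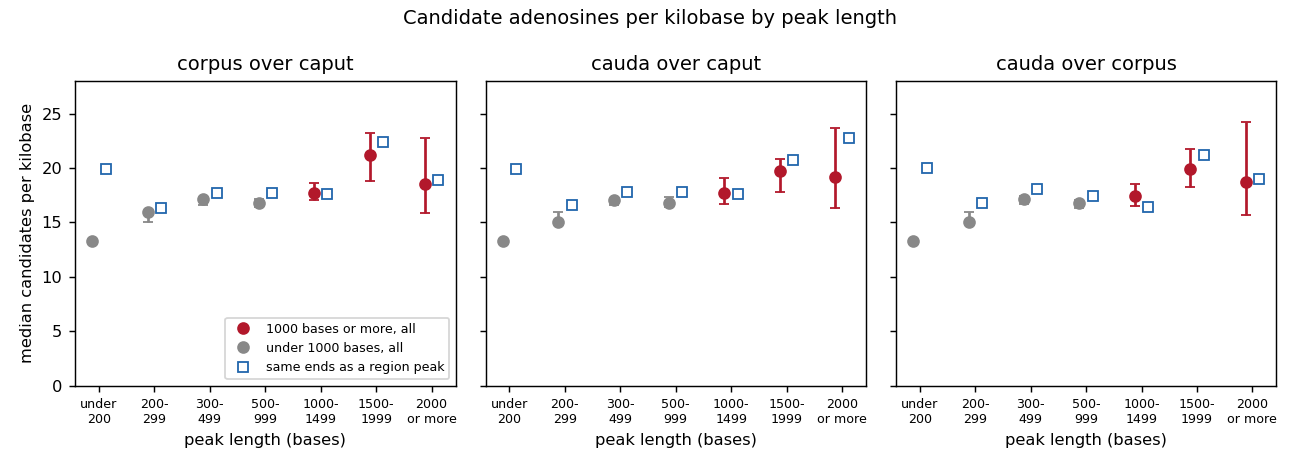
Median candidate adenosines per kilobase of peak (y axis) in 7 classes of peak length (bases, x axis), 1 panel for each comparison; circles are all peaks (red, 1000 bases or more; grey, shorter) with the 95% interval of the median as bars, and open squares are peaks with the same first and last base as a peak of a region list, without an interval. The grey circles are lowest under 200 bases at 13.3, where the squares stand near 20. The squares leave out peaks without a candidate. In spliced peaks candidates of introns are counted, while the length leaves introns out.

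Over all peaks, the share of candidates classed as m6A sites was close in both classes. It was 18.9% of 15522 candidates in long peaks for corpus over caput (95% Wilson interval 18.2 to 19.5) against 19.2% in shorter peaks (18.9 to 19.5). It was 19.5% (18.9 to 20.1) against 19.0% (18.7 to 19.3) for cauda over caput, and 19.4% (18.8 to 20.0) against 19.1% (18.9 to 19.4) for cauda over corpus. The intervals overlapped in each table. Among unspliced peaks the share was 20.5%, 21.0% and 21.9% in long ones against 21.9%, 21.8% and 21.9% in shorter ones, with overlapping intervals. Among spliced peaks it was 18.3%, 18.8% and 18.4% against 17.4%, 17.2% and 17.5%, with intervals apart for cauda over caput alone. High and very high confidence sites made 8.23%, 8.07% and 9.26% of candidates in unspliced long peaks against 9.25%, 9.31% and 9.29%. Those intervals were apart for cauda over caput alone. Spliced peaks went the other way, with 7.30%, 7.56% and 7.48% in long ones against 6.35%, 6.30% and 6.49%. There the intervals were apart in each table, with candidates of introns counted. In all, 93.0%, 92.4% and 93.0% of long peaks held at least 1 classed site, against 49.1%, 48.9% and 48.8% of shorter peaks, with a median of 4 classed sites against 0. Lengths were not matched in these counts per peak. Among shorter peaks the share was 29.8%, 29.9% and 29.4% under 200 bases and 76.4%, 77.9% and 76.3% from 500 to 999 bases.

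Within unspliced long peaks the candidates were spread along the whole length. For corpus over caput 34.3% lay in the 5' part of the peak, 34.0% in the middle part and 31.7% in the 3' part, the parts being of equal length. The share classed as m6A sites was 21.2%, 20.0% and 20.1% in those parts of long peaks, with overlapping intervals. In shorter peaks it was 20.7%, 23.5% and 21.4%, the middle part being above both flanks beyond their intervals. The median gap between neighbouring candidates was 34, 33 and 33 bases in long peaks against 30 bases in shorter ones. The longest run without a candidate had a median of 177, 181 and 168 bases in long peaks and reached 844 bases. Candidates did not sit at 1 point of a long peak.

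Some long peaks had almost none. Plec, the gene of the cytoskeletal linker plectin, had 8 long peaks over the 3 tables, as many as RANBP2, a nuclear pore protein, and ANKRD12. CHD2, a chromatin remodeller, and ZSCAN29, a zinc finger protein, had 7 each. A Plec peak of 2549 bases on chromosome 18 held 10 candidates in each region and none classed as an m6A site, and one of 1201 bases held 1. A RANBP2 peak of 2398 bases on chromosome 9 held 41 candidates in caput, 44 in corpus and 41 in cauda.

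Most long peaks came back as long peaks in the other tables. Of the 775 genes, 228 had a long peak in 1 table, 235 in 2 and 312 in all 3, where each pair of tables shares a region. Long peaks overlapped a long peak of another table in 68.6% to 72.5% of cases, only a shorter one in 18.6% to 22.1%, and none in 8.86% to 10.9%. From 14.9% to 18.7% overlapped at least 2 peaks of the same gene in the other table. Overlap was taken from first to last base, introns included, so these peaks need not be pieces of the long one. Among the 312 genes the longest length differed between tables by a median ratio of 1.05, and 77 had the same length in all 3. ZC3H13 had 1 peak of 4431 bases in the tables with corpus and 2 peaks of 2489 and 1843 bases for cauda over caput.

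Folds of long peaks were small. In the authors' deposited tables the median size of the log2 fold was 0.099, 0.10 and 0.10 for long peaks against 0.20, 0.22 and 0.21 for shorter ones. A change of at least 2-fold in either direction was listed for 1, 0 and 0 long peaks (0.175%, 0% and 0%). Among shorter peaks it was listed for 375, 339 and 330 (2.78%, 2.56% and 2.48%). In the class of 500 to 999 bases it was listed for 5, 0 and 0 (0.228%, 0% and 0%), so near the minimum shorter peaks were alike in this. The size was smaller in longer classes: for corpus over caput the authors' deposited table gave a median of 0.27 under 200 bases, 0.13 from 500 to 999 bases and 0.058 from 2000 bases. The median signed log2 fold of long peaks was -0.035 for corpus over caput, 0.025 for cauda over caput and 0.059 for cauda over corpus in the authors' deposited tables, beside -0.020, 0.043 and 0.046 over all peaks.

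**Figure D3:**
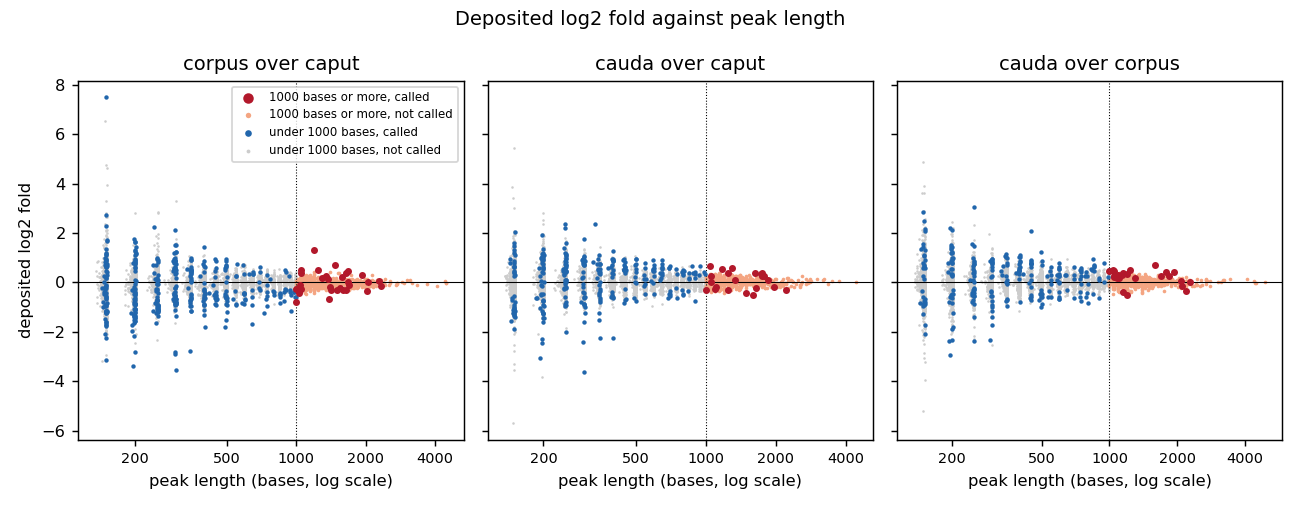
Deposited log2 fold (y axis) against peak length in bases (x axis, log scale) for every peak, 1 panel for each comparison; dark red marks called and light red uncalled peaks of 1000 bases or more, blue called and grey uncalled shorter peaks, and the dotted line is at 1000 bases. The funnel narrows to the right, with 1 long peak past a 2-fold change in the first panel and 0 in the others.

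Long peaks were called more often than shorter ones, although their folds were small. A peak is called where the authors' deposited adjusted p is under 0.05. For corpus over caput 31 long peaks (5.43%, 95% Wilson interval 3.85 to 7.60) were called by the authors' deposited table, beside 2.98% of all peaks. Of these 15 were higher, beside 1.12% of all peaks, and 16 lower, beside 1.86%. For cauda over caput 22 long peaks (3.74%, 2.48 to 5.59) were called, beside 2.27% of all peaks. There 13 were higher, beside 1.41%, and 9 lower, beside 0.861%. For cauda over corpus 24 long peaks (4.01%, 2.71 to 5.90) were called, beside 1.96% of all peaks. There 20 were higher, beside 1.24%, and 4 lower, beside 0.719%. Shorter peaks were called in 2.88%, 2.21% and 1.87% of cases, below each interval of the long peaks. The nearest shorter class, 500 to 999 bases, was called in 2.92%, 2.91% and 2.95% of cases. That lay below the interval of the long peaks for corpus over caput and within it for both cauda tables. From 1000 to 1499 bases the shares were 4.28%, 2.81% and 3.36%. No test over peaks was run, since peaks are not replicates of a region. Called long peaks had a median log2 size of 0.29, 0.30 and 0.33 in the authors' deposited tables, against 0.70, 0.64 and 0.62 for called shorter peaks, and 9, 5 and 6 of them were under 0.2. In all 67 genes had a called long peak, 10 of them in 2 tables and 0 in 3.

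**Figure D4:**
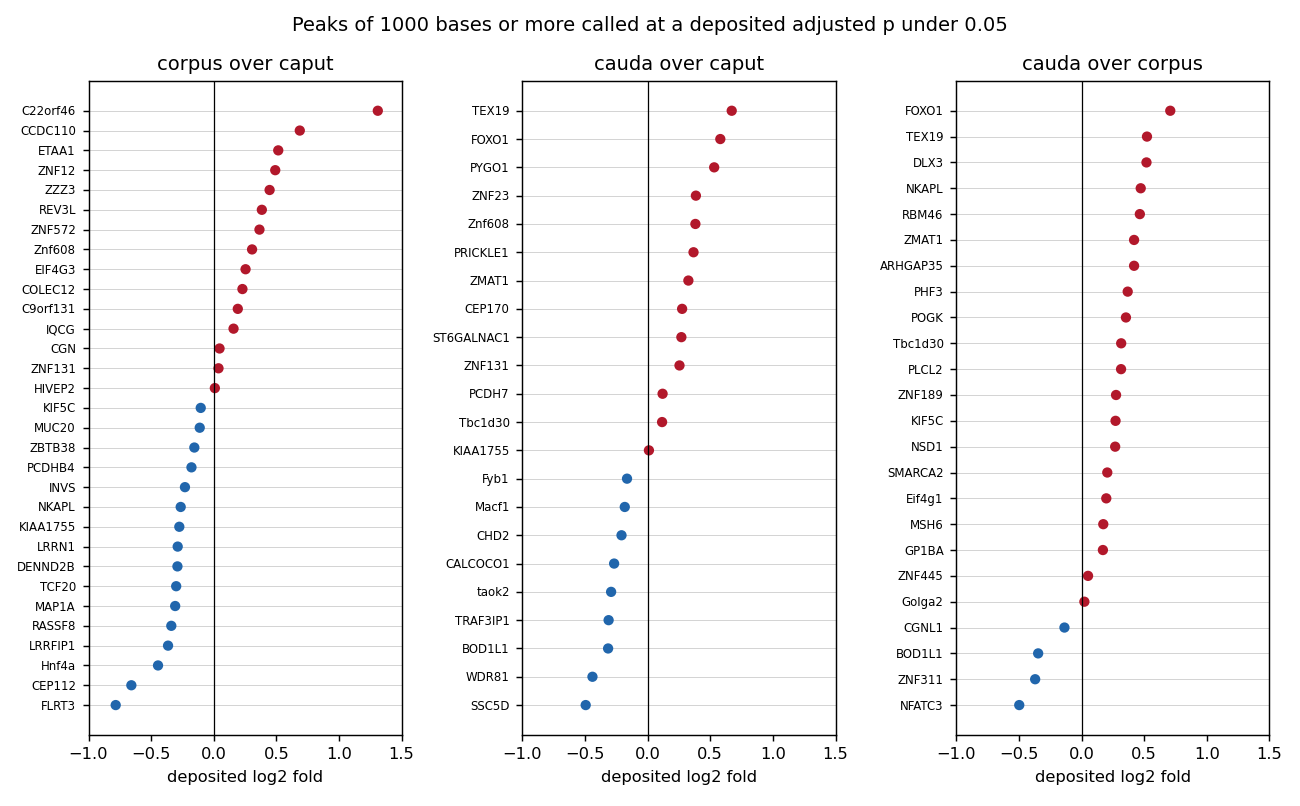
Deposited log2 fold (x axis) of every long peak called at an adjusted p under 0.05, by gene (y axis, ordered by fold), 1 panel for each comparison; red is higher and blue lower in the region named first. The 31, 22 and 24 peaks lie between -0.78 and 1.31, and the panel of cauda over corpus has 20 on the right of 0 and 4 on the left.

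In the cauda the highest called long peaks were those of transcription and germ cell genes. FOXO1, a forkhead factor of insulin signalling, rose in cauda over caput by 0.58 on the log2 scale in a peak of 1300 bases at chr15:61227329-61229092 on the minus strand (the authors' deposited table, adjusted p 0.000275). Over corpus its peak of 1599 bases rose by 0.71 (the authors' deposited table, adjusted p 2.24e-05). The smaller of these spans held 11 candidates in caput, 14 in corpus and 15 in cauda. TEX19, known for silencing retrotransposons in mouse germ cells, rose by 0.67 over caput and 0.52 over corpus in the authors' deposited table. Its peak of 1039 bases held 11 candidates in caput, 11 in corpus and 17 in cauda, none classed as an m6A site over caput and cauda together. The cauda list thus held more candidates than the caput list in both peaks.

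Further long peaks higher in the cauda belonged to regulators of transcription, polarity and Wnt signalling, among others. ZMAT1, a zinc finger protein gene on chromosome X, rose by 0.33 over caput with an adjusted p of 5.13e-07 and by 0.42 over corpus with 5.37e-06 in the authors' deposited tables. Its peak of 1730 bases held 21 candidates in caput, 37 in corpus and 59 in cauda. PRICKLE1, of planar cell polarity, rose by 0.37 over caput (the authors' deposited table, adjusted p 0.000479). PYGO1, a coactivator of Wnt signalling, rose by 0.53 over caput (the authors' deposited table, adjusted p 0.0105). DLX3, a homeodomain factor, rose by 0.52 over corpus (the authors' deposited table, adjusted p 2.24e-05), and had 9 candidates in caput, 2 in corpus and 11 in cauda. The lowest p of cauda over corpus was that of GP1BA, of a platelet adhesion receptor, whose unspliced peak of 1085 bases rose by 0.17 (the authors' deposited table, adjusted p 9.77e-09) and held 28 candidates in cauda and 0 in the others.

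The lower long peaks of the cauda were fewer. Over caput the authors' deposited table gave SSC5D, a scavenger receptor family protein, at -0.50 and WDR81, of endosomal traffic, at -0.44, with adjusted p of 0.0309 and 0.0204. BOD1L1, a protector of stalled replication forks, fell by 0.32 over caput and by 0.35 over corpus in the authors' deposited tables in the same peak of 2199 bases. NFATC3, a calcium-regulated transcription factor, fell by 0.50 over corpus (the authors' deposited table, adjusted p 0.0182). FOXO1, TEX19, ZMAT1, BOD1L1 and Tbc1d30 were called in both cauda tables and in 1 direction, and these tables share the cauda libraries.

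Between corpus and caput the called long peaks went both ways. FLRT3, an adhesion receptor of the fibronectin leucine-rich family, fell by 0.78 in corpus in an unspliced peak of 1000 bases, chr12:83436215-83437214 (the authors' deposited table, adjusted p 0.00209). Its span held 25 candidates in corpus and 38 in caput. CEP112, a centrosomal protein, fell by 0.66 (the authors' deposited table, adjusted p 0.00891), with 24 candidates in corpus and 30 in caput. Hnf4a, a nuclear receptor of epithelia, fell by 0.45 (the authors' deposited table, adjusted p 0.00209), with 23 candidates in caput, 14 in corpus and 0 in cauda. MAP1A, which binds microtubules, fell by 0.31 (the authors' deposited table, adjusted p 0.00372) with 73 candidates in each region. Among those that rose, ETAA1, an activator of the ATR kinase, was at 0.52 and ZZZ3, a histone reader, at 0.45 in the authors' deposited table.

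The 3 long peaks with the lowest p of corpus over caput went against the site lists. C22orf46 had a log2 fold of 1.31 and CCDC110 one of 0.69, both with p listed as 0, and C9orf131 one of 0.19 (the authors' deposited table, adjusted p 5.75e-10), so all are given as higher in corpus. Their candidates stood in the caput list alone: 43 in caput, 0 in corpus and 0 in cauda for C22orf46, 44 in caput and 0 in the others for CCDC110, and 27 in caput and 0 in the others for C9orf131. For cauda over caput the same C22orf46 peak was at -0.42 (adjusted p 0.0603), the same C9orf131 peak at -0.18 and the same CCDC110 peak at -0.039 in the authors' deposited table, none of them called. A shorter C22orf46 peak of 401 bases, with 10 candidates in the caput list alone, was called at -1.79 for corpus over caput in the authors' deposited table. A shorter CCDC110 peak of 149 bases, with 3 candidates in the caput list alone, was called at 0.16, and a shorter C9orf131 peak of 249 bases, with 5 in the caput list alone, at -0.079 in the authors' deposited table. So the shorter peaks of C22orf46 and C9orf131 had folds toward the list with the candidates, and that of CCDC110 had not.

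Such conflicts were counted over all peaks listed in only 1 region of a pair. For corpus over caput 4 long peaks had candidates in caput and none in corpus, and 0 of the 4 had a fold toward caput in the authors' deposited table, against 1656 of 1934 shorter peaks (85.6%). For cauda over caput 5 of 9 such long peaks had a fold toward caput, against 81.5% of shorter ones. For cauda over corpus 2 of 6 long peaks listed in corpus and not in cauda had a fold toward corpus, against 84.5% of shorter ones. Long peaks listed in the first-named region and not in the second had a fold toward it in 1 of 1, 3 of 3 and 3 of 4 cases, against 87.0%, 89.7% and 88.8%. Among called long peaks with unequal candidates, the fold went toward the longer list in 21 of 24, 19 of 20 and 17 of 21, against 92.4%, 95.9% and 94.3% of shorter ones. KIF5C, a kinesin, and NKAPL, known for a part in mouse spermatogenesis, were among the exceptions: at 0.27 and 0.47 for cauda over corpus in the authors' deposited table, with 0 candidates in cauda and 16 and 15 in corpus. These counts are few, and what sets the conflicts was not tested.

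Some genes had several long peaks in a table. In the 39, 31 and 37 genes with at least 2, folds of both signs stood side by side in 20, 17 and 25, with a median range within a gene of 0.20, 0.21 and 0.18 on the log2 scale. Whether such ranges exceed the spread between libraries was not tested. For cauda over caput CHD2 had a peak of 1638 bases at -0.21 (the authors' deposited table, adjusted p 0.0123), and peaks of 1192 and 1093 bases at 0.22 and 0.092, neither called.

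Genes with a long peak carried nuclear and cytoskeletal annotation more often than genes with shorter peaks alone. Annotation terms were deposited for 675 of the 775 genes and for 7684 genes with shorter peaks alone. A term with the word nucleus was held by 45.6% of long-peak genes (95% Wilson interval 41.9 to 49.4) against 31.7% (30.7 to 32.8). DNA binding was held by 25.2% against 13.6%, regulation of transcription by 22.5% against 13.0%, RNA binding by 13.3% against 8.82% and microtubule by 10.5% against 5.78%. Words of metabolism and membranes went the other way: mitochondri by 5.48% against 10.5%, transmembrane transport by 1.33% against 3.67% and ribosom by 0.889% against 3.25%. The intervals of each of these pairs did not overlap. Long-peak genes had a median of 2 peaks and other genes 1. Against genes with shorter peaks alone and at least 2 of them, RNA binding stood at 13.3% (11.0 to 16.1) against 10.1% (9.13 to 11.1), with overlapping intervals, while those of the other 7 words still did not overlap. Transcript length was not analysed here, and its part in these shares was not tested.

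**Figure D5:**
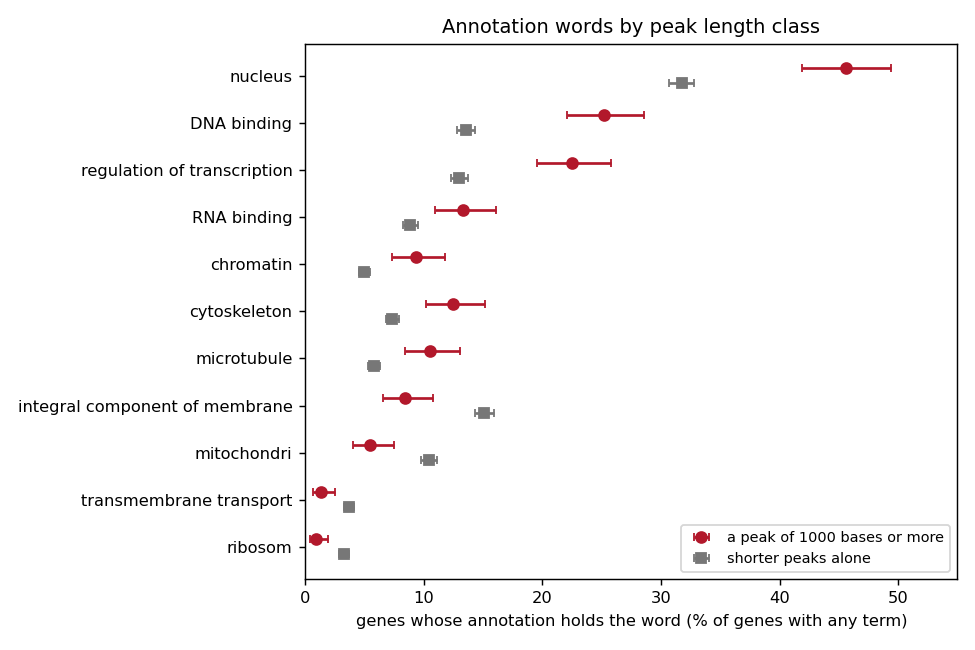
Genes whose deposited annotation holds a word (% of genes with any term, x axis) for 11 words (y axis), with red circles for genes with a peak of 1000 bases or more and grey squares for genes with shorter peaks alone; bars are 95% Wilson intervals. Nucleus stands at 45.6% against 31.7% and mitochondri at 5.48% against 10.5%.

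Gene lists of known function gave the same picture by name, though several were drawn up for genes known to have long exons, so their shares are no independent evidence. Of 769 long-peak genes with a symbol, 26 (3.38%) were chromatin regulators, against 36 of 8550 (0.421%) genes with shorter peaks alone. Among them were the acetyltransferase KAT6B with 3036 bases, the remodellers ATRX with 2749 and BPTF with 2589, and a PHF3 gene ID, of an RNA polymerase II binder, with 2188. In cauda over corpus a peak of 1847 bases in NSD1, a histone methyltransferase, rose by 0.27 and a peak of 1047 bases in SMARCA2, a remodelling ATPase, by 0.21 in the authors' deposited table. A peak of 1146 bases under another PHF3 gene ID rose by 0.37, while the other long peak of that ID, of 1096 bases, was at 0.13 and not called in the authors' deposited table. With 0 lower, these were the 3 called of the 30 long peaks on the list, beside 1.96% of all peaks and 4.01% of all long peaks. Their list's median was 0.069 there, beside 0.059 for all long peaks. For corpus over caput 0 of the 24 long peaks on the list were called in the authors' deposited table, beside 2.98% of all peaks, and for cauda over caput 1 of 26, CHD2, lower, beside 2.27%. At an unadjusted p under 0.05 were 4 of 24 for corpus over caput, 8 of 26 for cauda over caput and 8 of 30 for cauda over corpus in the authors' deposited tables, beside 16.4%, 17.2% and 16.4% of all peaks.

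Scaffold and cytoskeleton gene IDs numbered 17 (2.21%) against 27 (0.316%), and listed transcription factors 20 (2.60%) against 28 (0.327%). Of those 17, PRRC2A and Macf1 had 2 gene IDs each, and the PRRC2A IDs are also counted in the m6A machinery below. Of the scaffold list MAP1A was called lower in corpus over caput, 1 of 23 long peaks, and Macf1, a linker of microtubules and actin, lower in cauda over caput, 1 of 20, at -0.18 in the authors' deposited table, beside 2.98% and 2.27% of all peaks and 5.43% and 3.74% of all long peaks. These scaffold counts lie near the share of all long peaks, and 0 of 17 were called for cauda over corpus. On the transcription factor list 3 of 14, 2 of 14 and 1 of 10 long peaks were called in the authors' deposited tables. All long peaks were called in 5.43%, 3.74% and 4.01% of cases, and all peaks in 2.98%, 2.27% and 1.96%. Symbols that start with ZNF, a family of zinc finger genes chosen after the values were seen, made 57 long-peak genes (7.41%) against 209 (2.44%). Their called long peaks were 4 higher and 0 lower of 41, 3 and 0 of 42, and 2 and 1 of 43 in the 3 tables. Of all peaks 1.12%, 1.41% and 1.24% were called higher and 1.86%, 0.861% and 0.719% lower. Of all 571, 589 and 598 long peaks 15, 13 and 20 were called higher and 16, 9 and 4 lower. Among the higher ZNF peaks ZNF131 was at 0.038 for corpus over caput and ZNF445 at 0.051 for cauda over corpus in the authors' deposited tables. The others lay between 0.25 and 0.49. Lists of ubiquitin and turnover, signalling, and adhesion and matrix genes had 4, 4 and 3 long-peak genes (0.520%, 0.520% and 0.390%), against 0.304%, 0.444% and 0.363% of genes with shorter peaks alone, with overlapping intervals.

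Of the m6A machinery 7 gene IDs had a long peak (0.910%) against 19 (0.222%). They were ZC3H13, the writer adaptors Rbm15 and Rbm15b, the methyltransferase METTL16, the translation factor EIF3A, and PRRC2A, an m6A reader, under 2 gene IDs. Rbm15 and Rbm15b peaks were unspliced, with up to 1445 and 1750 bases, and Rbm15b held 40 candidates in each region. Of 7, 8 and 5 long peaks on the list 0 were called in each table, and their folds lay between -0.22 and 0.18 on the log2 scale in the authors' deposited tables. By unadjusted p, 1, 0 and 1 of them were under 0.05 in the authors' deposited tables, beside 16.4%, 17.2% and 16.4% of all peaks.

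Most marker lists of the duct's own cells had no gene with a long peak, but they are short, and of all genes with a symbol 769 of 9319 (8.25%) had one. Of the listed principal cell secretory genes with any peak, 0 of 12 had a long one, and likewise 0 of 9 for clear and narrow cells, 0 of 8 for basal cells and 0 of 12 for multiciliated cells. Fibroblast, endothelial, macrophage and lymphocyte, and erythrocyte markers had 0 of 8, 0 of 9, 0 of 7 and 0 of 1. The shares of these lists among long-peak genes, 0% with an upper bound of 0.497%, overlapped those among genes with shorter peaks alone. Smooth muscle markers had 3 of 12, SYNM, Lmod1 and CALD1, none called, and sperm and spermatid markers 1 of 12, Odf2, of the sperm tail, not called. SYNM and Lmod1 were long for corpus over caput alone and had 0 candidates in cauda.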

How the data were processed

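Peaks were read from the authors' 3 deposited comparison tables, which give per peak the chromosome, ends, strand, length in bases, gene ID, a fold (ratio), a log2 fold, a p-value and an adjusted p-value, and candidates from the authors' 3 deposited site lists, 1 per region, which give each adenosine a prediction score and class. Gene symbols and annotation terms came from the deposited expression table, of which 9 columns of per-sample values match no label and were not used. The submitters' processing notes name the tools Trimmomatic, HISAT2 and deepTools. Not given in the sources used here were the genome build, the site predictor, the test behind the folds and the peak caller.

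Long peaks had a length of at least 1000 bases. The members and the gene lists were chosen with earlier results of these data known. Each candidate position was counted once per peak, with its highest score. Shares have 95% Wilson intervals and medians 95% order-statistic intervals. Called means a deposited adjusted p under 0.05, with no test of peaks added. Named genes were, per comparison, the 5 longest, the called peaks of lowest p up to 10, the 3 highest and 3 lowest folds, the peaks around the length minimum, those with most candidates or most long peaks, and up to 4 per gene list. Genes named beside these were chosen after their values were seen. Not all genes that this rule takes are described. Library depth is unknown. The counting from first to last base was tested on simulated peaks that lay apart, with candidates planted anywhere in the span. That test cannot show how many candidates of introns or of neighbouring peaks are counted in real peaks. Python 3.11.15, pandas 2.3.3, numpy 2.4.6, statsmodels 0.14.6 and matplotlib 3.10.9 were used.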

Additional observations from a re-analysis of the deposited data

How the results depend on the processing

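Length minimums of 800, 1500 and, for span in place of length, 1000 bases gave 1021, 150 and 6996 long peaks for corpus over caput, 1057, 162 and 6838 for cauda over caput, and 1050, 152 and 6923 for cauda over corpus. Genes long in more than 1 comparison numbered 961 at 800 bases and 143 at 1500, against 547 at 1000. Called long peaks in the same order of tables were 52, 37 and 41 at 800 bases, 13, 10 and 9 at 1500, 121, 124 and 121 by an unadjusted p under 0.05, and 13, 6 and 9 among unspliced peaks. They were 32, 26 and 28 by Benjamini-Hochberg adjustment over the rows of each table, an alternative chosen after seeing the data, against 31, 22 and 24. Candidates per kilobase were 19.9, 19.7 and 19.3 at 1500 bases, 2.88, 3.11 and 2.99 for those classed as m6A sites and 4.37, 4.38 and 4.63 per kilobase of span. They were 15.9, 17.0 and 16.6 in unspliced peaks with the ends of a region peak, also chosen after seeing the data. The share classed was 19.6% and 20.1% at 1500 bases for corpus over caput and cauda over caput, and 7.55%, 7.72% and 7.99% for high and very high confidence. At 1500 bases the function lists held 4.89% (scaffold), 6.67% (chromatin), 4.89% (transcription factors), 2.22% (m6A machinery) and 1.33% (ubiquitin and turnover) of long-peak genes, and 3.55% of genes long in all 3 tables were scaffold genes. Genes with shorter peaks alone and at least 2 peaks held 0.528% ubiquitin and turnover, 0.696% signalling and 0.552% adhesion and matrix genes. The cause of these shifts was not tested. Of 174 alternative values 99 stayed within the interval of the reported value or within 1.5 times its count, and the unspliced share and the median log2 fold did so under every alternative run.

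No paired analysis was possible because the tables hold 1 value per comparison and none per library, and for the same reason no replicate was left out. Summed block sizes were not run, since no blocks are given with the peaks. Depth per library is unknown, and the folds and call shares of long peaks were not set against it.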

Other observations

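Gene families outside the lists had a long peak at these shares. The families were chosen by the start of the symbol after the values were seen. Cytosolic ribosomal protein genes (RPL or RPS) were 0 of 769 long-peak genes, with a 95% Wilson upper bound of 0.497%, against 55 of 8550 (0.643%) genes with shorter peaks alone. Solute carriers (SLC), which move ions and metabolites across membranes, were 2 (0.260%) against 126 (1.47%). The ZBTB transcription repressors were 7 (0.910%) against 29 (0.339%), and protocadherins (PCDH) 4 (0.520%) against 16 (0.187%), and of these 4 families the intervals of the solute carriers alone did not overlap. Against genes with shorter peaks alone and at least 2 of them the solute carriers stood at 0.260% (0.0714 to 0.943) against 1.03% (0.767 to 1.39), and their intervals overlapped too. Golgi terms were held by 9.33% of long-peak genes against 9.24%, and cilium terms by 4.30% against 3.41%, with overlapping intervals.

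Of the genes with a called long peak 6 of 31, 0 of 22 and 1 of 24 also had a called shorter peak in the 3 tables. Among those with any shorter peak these were 6 of 22 (27.3%, 95% Wilson interval 13.2 to 48.2), 0 of 12 (0 to 24.2) and 1 of 15 (6.67%, 1.19 to 29.8), against 342 of 7594, 276 of 7660 and 219 of 7536 genes with shorter peaks alone. In 3 of those 6 genes, and in the 1 of cauda over corpus, the long and the shorter peak had opposite signs. MAP1A had a long peak at -0.31 and a shorter peak of 401 bases at 0.62 on the log2 scale for corpus over caput, and Eif4g1, a translation initiation scaffold, a long peak at 0.20 and a shorter peak of 500 bases at -0.48 for cauda over corpus, all 4 called in the authors' deposited tables. Whether these differences between peaks of 1 gene lie within library spread was not tested.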
